A study of Mus musculus with 12 samples.

Results

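RNA of Sca-1+Lin- bone marrow cells carrying NA10, an engineered fusion of the nucleoporin NUP98 with the homeobox protein HOXA10, was compared with RNA of the same kind of cells carrying only GFP. The comparison used 6 of the 12 arrays of the study, 3 with NA10 and 3 of the GFP control, chosen by their titles, and all 22626 probe sets of the MOE430A array apart from the manufacturer's controls. The other 6 arrays held ND13, a fusion of NUP98 with HOXD13, and ND13(N51S), the same fusion with a homeodomain mutated so that it no longer binds DNA. In all groups the donors were PepC3 mice older than 12 weeks, which are F1 hybrids of C57Bl/6Ly-Pep3b and C3H/HeJ, given fluorouracil at 150 mg/kg 4 days before the marrow was harvested. The cells were prestimulated for 48 hours with human IL-6 at 10 ng/mL, mouse IL-3 at 6 ng/mL and stem cell factor at 100 ng/mL. They were cultured for 2 days with protamine sulfate at 5 µg/mL on GP+E86 cells, irradiated at 4000 cGy, that shed the virus. The marrow cells were then grown for 24 hours more in the same cytokines without protamine sulfate. They were sorted for GFP, for Sca-1 and against the lineage markers CD4, CD5, CD8, B220, Gr-1 and Ter-119. The viral vector was MSCV with an IRES-GFP cassette, empty in the control and with NA10 upstream of the IRES in the NA10 group. Every group therefore shared the chemotherapy, the cytokines, the coculture and the virus, and the 3 arrays of a group are numbered replicates, which the series' design text gives as independent experiments.

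NUP98 is a component of the nuclear pore whose N-terminal part carries repeats that recruit regulators of transcription. HOXA10 belongs to the posterior HOX proteins, which bind DNA through the homeodomain, often together with PBX and MEIS proteins of the TALE class, and which are active in primitive hematopoietic cells. Fusions of the NUP98 N-terminus to a HOX homeodomain are found in acute myeloid leukemia, and NA10 was built as a model of them that expands hematopoietic stem cells in culture.

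The values were MAS5 signals, a measure of probe brightness on a linear scale that the authors had scaled to a trimmed mean of 500.16 to 500.17 on these 6 arrays. The background of an array, taken here as the 95th percentile of its 27 bacterial control probe sets, lay between 28.5 and 41.5, and 16470 to 17695 probe sets exceeded it. Ratios of 3' to 5' signal were 1.901 to 2.71 for Gapdh and 1.718 to 2.381 for beta-actin, and arrays of one group correlated with r = 0.915 to 0.938 across probe sets on the log2 scale. Of the other 6 arrays 1 stood apart, ND13(N51S) replicate 2, with a ratio of 48.87 for Gapdh and 9.092 for beta-actin. It entered the estimate of the spread but neither mean of the comparison, and calls without it are given below. Unlike its label, the experiment record of GFP control replicate 1 speaks of cells without GFP from the ND13(N51S) culture. The label was kept, and counts that moved by over 1.5 times without that array are given beside them. Cd34 and Kit, which were not used in the sort, were well above background and overlapped between the groups. Cd34 read 3340.1, 4553 and 4117 in the GFP control and 3956, 3586 and 4950.5 with NA10. Kit, the receptor for stem cell factor, read 981, 792 and 1096 in the GFP control and 1242, 849.9 and 899 with NA10. Cd4, a marker of lineage-positive cells, stayed below background on all 6 arrays. Genes of the other sort markers, Sca-1 among them, are not given here, so the purity of the sort was not tested.

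Few probe sets passed after adjustment. At an adjusted p under 0.05 and at least 1.5-fold, 8 probe sets rose with NA10 and 1 fell, which is 0.0354% and 0.00442% of those tested. The named genes among them were Hlf, Hacd4, Ddx4, Olfm1, Clu and Pde9a, which rose, and Mycn, which fell, while 1 probe set had several genes and 1 had none in the annotation. At the unadjusted thresholds, p under 0.05 and 1.5-fold, 690 probe sets were higher (3.05%) and 426 lower (1.88%). All 3 NA10 arrays lay above all 3 control arrays for 1268 probe sets (5.6%) and below them for 1172 (5.18%). With 1 probe set for each of 12393 genes the counts were 411 higher (3.32%) and 228 lower (1.84%), and the median change over all genes was -0.0047 on the log2 scale, with quartiles of -0.24 and 0.24. Among the 8214 genes above background on all 6 arrays, 257 were higher and 66 lower, so most lower genes were at or below background on some array. Without GFP control replicate 1 the calls were 6 and 0, and the counts at the unadjusted thresholds 556 and 411. The number called higher was 2 without any 1 of the NA10 arrays, while the methods' t-test gave 0 calls and 885 probe sets at an unadjusted p under 0.05.

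**Figure D1:**
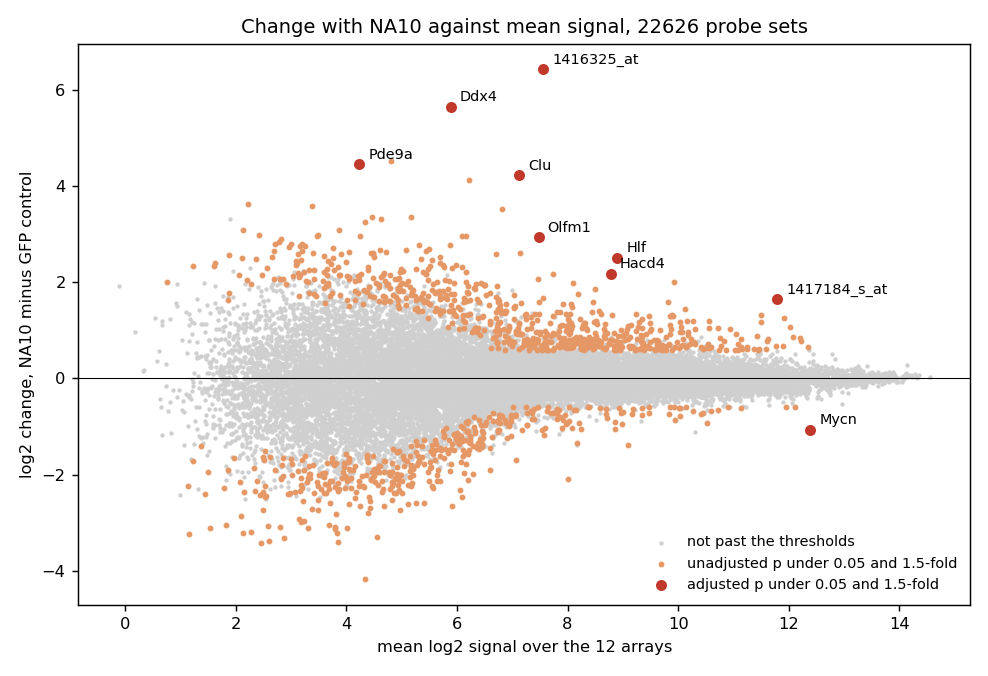
Log2 change with NA10 against the GFP control (y axis) by mean log2 signal over the 12 arrays (x axis) for 22626 probe sets. Red points are the 9 called probe sets, orange points pass the unadjusted thresholds only, and the widest scatter in both directions lies at low signal, where Ddx4 and Pde9a sit.

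The smallest p belonged to probe set 1416325_at, for which the annotation gives no gene. It read 52.5, 6.87 and 14.3 in the GFP control and 1574, 975 and 2176 with NA10, so that 2 of the 3 control arrays lay below background and all 3 NA10 arrays were far above it. The log2 change was 6.44 ± 0.45 (SE), with limma's adjusted p = 0.000183. It was called under all 14 alternatives in which it was tested apart from the methods' t-test, with changes of 4.84 to 7.10. The second was 1417184_s_at, which the annotation gives to several beta-globin genes, Hbb-bt, Hbb-bs, Hbb-b1 and Hbb-b2, whose signals it cannot tell apart. Its signal was 1318, 3244 and 3351 in the GFP control and 5633, 7919 and 9842 with NA10. Every pair of arrays with the same number rose, and the groups did not overlap (log2 change 1.65 ± 0.14, limma's adjusted p = 0.00117). The call was lost without the replicate block (adjusted p = 0.418) and with plain eBayes (0.116), and replicate 1 was the lowest array of both groups. Beta-globin is the hemoglobin chain of red cells, and of 19 other erythroid genes 2 were higher and 0 lower at the unadjusted thresholds (median -0.11). The shares over all genes were 3.32% and 1.84%. The alpha-globin gene Hba-a2 read 70.3, 55.3 and 229.7 in the GFP control and 84.0, 52.1 and 220.4 with NA10, and neither it nor Hba-a1, Klf1, Gata1 or Slc4a1 passed. In sorted bulk RNA more cells of a type and more RNA per cell cannot be told apart.

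Hlf, a PAR-type bZIP transcription factor of hematopoietic stem cells, read 190.4, 301 and 143 in the GFP control and 2078, 1106 and 662 with NA10 in its called probe set. The lowest NA10 array was above the highest control array, and the log2 change was 2.51 ± 0.30 (limma's adjusted p = 0.0146). Its other probe set, with the higher signal, went from 374, 678 and 593 to 2456, 1951 and 2082 and changed by 2.02 ± 0.35 (adjusted p = 0.0853). Hacd4, a dehydratase in the elongation of fatty acids, read 155, 265 and 196 in the GFP control and 994, 847 and 895 with NA10. The NA10 arrays lay close together and well above every control array (log2 change 2.18 ± 0.26, adjusted p = 0.0146). It was the only 1 of 21 genes of fatty acid elongation and desaturation that passed a threshold. At the unadjusted thresholds 3.32% of all genes passed upward and 1.84% downward. Ddx4, the RNA helicase known as Vasa in germ cells, read 3.96, 20.1 and 21.9 in the GFP control and 708, 553 and 578 with NA10. All control arrays lay below background, so the change was at least 18.7-fold (limma's adjusted p = 0.0146). For Hlf the adjusted p was 0.146 without NA10 replicate 1, 0.0571 without NA10 replicate 2 and 0.172 without NA10 replicate 3, and it was 0.377 without the replicate block. For Hacd4 it was 0.146 without NA10 replicate 1, 0.0571 without NA10 replicate 2 and 0.173 without NA10 replicate 3. For Ddx4 it was 0.0799 without GFP control replicate 1, 0.0638 without GFP control replicate 2, 0.146 without NA10 replicate 1, 0.0571 without NA10 replicate 2 and 0.172 without NA10 replicate 3. Plain eBayes, without trend and robust settings, also ended these 3 calls (0.151 for Hlf and Hacd4, 0.116 for Ddx4), and all 3 held on the 6 arrays alone.

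Olfm1, a secreted glycoprotein best known from the brain, read 131, 17.3 and 28.6 in the GFP control and 419.8, 247 and 285 with NA10 in its called probe set, with 1 control array above background (log2 change 2.94 ± 0.39, limma's adjusted p = 0.0219). Its other 2 probe sets were dimmer and not called, and the brighter of them changed by 1.04. Clu, the secreted chaperone clusterin, had 4 probe sets, all higher with NA10 on every array. The called one read 10.4, 59.6 and 78.7 in the GFP control and 549, 401 and 1469.9 with NA10 (log2 change 4.23 ± 0.57, limma's adjusted p = 0.0255). The brightest went from 217, 265 and 269 to 581, 351 and 1342 and changed by 1.38 ± 0.32, and in each of the 4 probe sets NA10 replicate 3 was the highest array. Pde9a, a phosphodiesterase specific for cGMP, was below background in the control and low with NA10, at 5.96, 3.59 and 6.35 in the GFP control and 122, 50.6 and 238 with NA10, a change of at least 3.49-fold (limma's adjusted p = 0.0398). The adjusted p of Olfm1 was 0.0912 without GFP control replicate 2, 0.16 without GFP control replicate 3, 0.145 without NA10 replicate 1, 0.152 without NA10 replicate 2 and 0.295 without NA10 replicate 3. That of Clu was 0.116 without GFP control replicate 3, 0.276 without NA10 replicate 1, 0.0611 without NA10 replicate 2 and 0.37 without NA10 replicate 3. That of Pde9a was 0.226 without GFP control replicate 1, 0.12 without GFP control replicate 2, 0.182 without GFP control replicate 3, 0.266 without NA10 replicate 1, 0.107 without NA10 replicate 2 and 0.37 without NA10 replicate 3. Without the replicate block none of the 3 was called, with 0.244 for Olfm1 and 0.0908 for Clu and Pde9a. On the 6 arrays alone Olfm1 and Pde9a were lost (0.0681 and 0.0889), with plain eBayes Olfm1 and Clu (0.165 and 0.196), and the filter on dim probe sets ended the call of Clu. With a pseudocount of 32 the change of Pde9a was 2.02 and was not called (0.0743).

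Mycn, which encodes the Myc-like factor N-Myc, was the one gene called lower. This probe set read 8754, 8828 and 12180.0 in the GFP control and 5042, 3306 and 6155 with NA10, so the groups did not overlap and the log2 change was -1.07 ± 0.14 (limma's adjusted p = 0.0219). The call was lost in each fit without 1 of these arrays, where the adjusted p was 0.102 without GFP control replicate 1, 0.12 without GFP control replicate 2, 0.16 without GFP control replicate 3, 0.0837 without NA10 replicate 1, 0.0664 without NA10 replicate 2 and 0.172 without NA10 replicate 3. It was also lost without the replicate block (0.358), with plain eBayes (0.291) and after median centring (0.054). The other 2 Mycn probe sets did not fall: one read 894, 1350.0 and 1289 in the GFP control and 1427, 1257 and 1844 with NA10 (0.36 ± 0.26) and the other 89.6, 61.8 and 128 in the GFP control and 144, 101 and 82.7 with NA10 (0.25 ± 0.53). Among all genes 3.32% were higher and 1.84% lower at the unadjusted thresholds. Of the 12 genes of the Myc and Max network, the antagonists Mxd4 and Mxi1 were higher at these thresholds, by 0.83 and 0.65. Neither passed them without GFP control replicate 1, and 1 of the 2 did without NA10 replicate 1 or 2. Without GFP control replicate 1 or NA10 replicate 1, 2 of the 12 genes were lower.

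**Figure D2:**
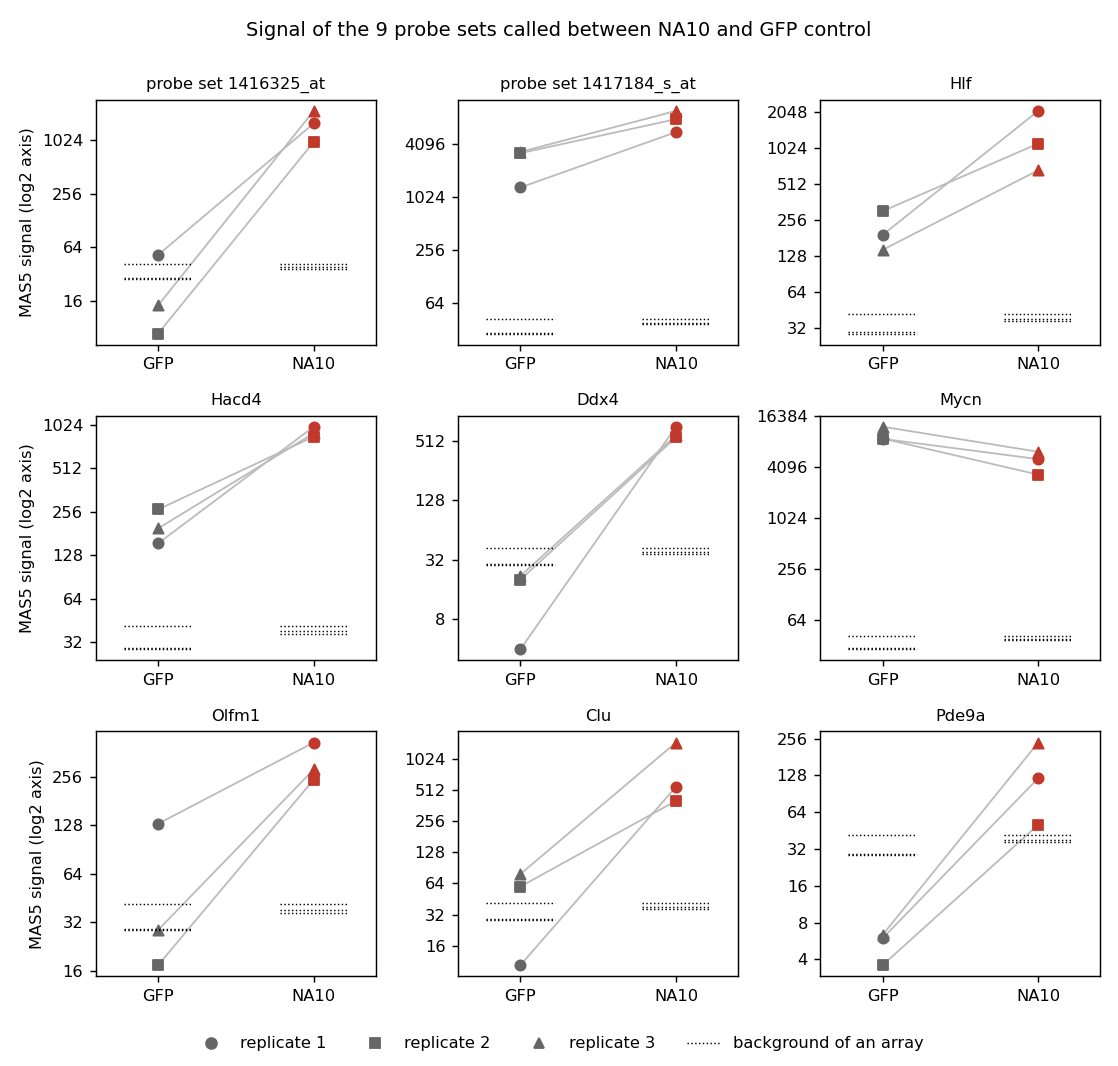
MAS5 signal (log2 axis) of the 9 called probe sets in each array, with grey lines joining arrays of the same replicate number and dotted lines at the background of each array. In 8 panels all 3 NA10 arrays lie above all 3 control arrays, and in the Mycn panel all 3 lie below.

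Promoter sequences are shown for the genes that were called, since HOX fusions act through DNA. RefSeq's promoter table (GRCm38.p6) held 6 promoters of 5 of these genes, Ddx4, Hacd4, Hlf, Mycn and Olfm1, and 1 of each is printed over the 250 bases before the start, 5′ to 3′ in the direction of the gene. Capitals mark the letters TTTATGG and TTTACGA, which posterior HOX proteins are known to prefer, and TGATTTA, which they prefer together with PBX, on either strand.
Hlf at chr11:90390918-90391167 (minus strand): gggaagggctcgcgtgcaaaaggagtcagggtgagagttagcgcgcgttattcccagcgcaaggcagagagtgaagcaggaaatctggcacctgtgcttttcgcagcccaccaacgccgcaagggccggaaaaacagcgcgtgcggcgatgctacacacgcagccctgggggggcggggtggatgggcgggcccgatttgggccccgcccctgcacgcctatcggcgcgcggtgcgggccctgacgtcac
Hacd4 at chr4:88438916-88439165 (minus strand): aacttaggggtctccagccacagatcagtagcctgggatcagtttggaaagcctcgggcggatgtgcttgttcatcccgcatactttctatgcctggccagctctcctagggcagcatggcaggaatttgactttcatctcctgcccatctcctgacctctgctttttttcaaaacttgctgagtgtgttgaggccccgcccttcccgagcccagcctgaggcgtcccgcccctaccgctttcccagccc
Ddx4 at chr13:112652311-112652560 (minus strand): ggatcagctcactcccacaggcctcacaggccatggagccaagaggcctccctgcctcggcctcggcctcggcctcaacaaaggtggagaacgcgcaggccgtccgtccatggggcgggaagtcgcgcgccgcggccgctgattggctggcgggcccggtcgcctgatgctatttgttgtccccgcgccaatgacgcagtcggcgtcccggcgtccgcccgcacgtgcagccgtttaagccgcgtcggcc
Olfm1 at chr2:28205439-28205688 (plus strand): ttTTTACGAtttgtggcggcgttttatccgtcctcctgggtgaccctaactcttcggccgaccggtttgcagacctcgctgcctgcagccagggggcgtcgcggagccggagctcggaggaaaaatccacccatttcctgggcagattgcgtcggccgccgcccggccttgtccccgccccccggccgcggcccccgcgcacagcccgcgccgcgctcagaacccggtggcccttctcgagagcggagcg
Mycn at chr12:12941837-12942086 (minus strand): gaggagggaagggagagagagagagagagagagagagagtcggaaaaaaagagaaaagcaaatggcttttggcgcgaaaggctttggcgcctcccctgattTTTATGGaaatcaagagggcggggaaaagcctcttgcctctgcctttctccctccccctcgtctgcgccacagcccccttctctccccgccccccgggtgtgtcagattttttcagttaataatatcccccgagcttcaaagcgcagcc
Mycn held TTTATGG beginning 149 bases before the start, and Olfm1 held TTTACGA, read on the strand that matches, beginning 248 bases before it. The windows of Hlf, Hacd4 and Ddx4 held none of these letters. Olfm1 had 2 promoters, and the one printed was chosen because it held a motif. The other held none. Of all 32851 promoters, 5.34% held at least 1 of the 3 motifs, against 2 of the 6 promoters of called genes and 2 of 31 promoters (6.45%) of the 26 genes with promoters among the 50 calls made without ND13(N51S) replicate 2. The promoters of called genes were rich in CG dinucleotides, with a median of 24.5 in 250 bases and a GC content of 68.2%, against 6.0 and 52.4% over all promoters. Of the HoxA, HoxB and TALE genes at the unadjusted thresholds, only 4 had a promoter in the table, and 0 of these 4 promoters held a motif. The rest of those genes were not searched. These are descriptions of sequence, and no binding was measured.

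Without ND13(N51S) replicate 2, whose Gapdh ratio stood apart, 47 probe sets were called higher and 3 lower. These held all 9 of the calls above and 41 more, and the genes among the further ones were picked by this fit, after its values were seen. Cd93, a lectin-like receptor of early progenitors, went from 562, 533 and 1175 to 1569.5, 1186 and 2200.1, and Laptm4b, a lysosomal membrane protein, from 1782, 2914 and 1757 to 4254, 5170.1 and 4696. Itgb2, the beta chain of the leukocyte integrins, had nearly equal controls and went from 637, 636 and 630.1 to 1193, 1087 and 1467. Ptprf, a receptor tyrosine phosphatase, went from 19, 13.5 and 30.3 to 269.9, 216 and 205, at least 7.01-fold, with the control below background. Cd28, a costimulatory receptor of T cells, went from 11.3, 20.1 and 16.5 to 171, 82.6 and 129, at least 3.75-fold. Csgalnact1, an enzyme of chondroitin sulfate synthesis, went from 137, 211 and 237 to 679, 479 and 575. Among secreted and intracellular proteins, Tgfbi, a matrix protein induced by TGF-beta, went from 734, 446 and 347 to 1743, 1204 and 799, Anxa1, a phospholipid-binding protein, from 2279, 3323 and 2154 to 5529, 4794 and 5620.0, and Basp1, a membrane-bound signaling protein, from 799, 675 and 626 to 1767, 1445 and 1564. The further lower genes were Tm6sf1, at 1983, 1777 and 2757 in the GFP control and 1506, 1049 and 1548 with NA10, and Bex6, at 898, 1224 and 509.6 in the GFP control and 421, 511 and 147 with NA10, where the lowest control array and the highest NA10 array were almost equal. In the fit of all 12 arrays none of the 41 passed, with adjusted p of 0.0823 for Cd93, 0.0823 for Itgb2, 0.0823 for Ptprf and 0.358 for Basp1. In that fit Cd93 changed by 0.48 with ND13(N51S) against the GFP control, Itgb2 by 1.09 and Ptprf by 1.72. Cd28 changed by 2.52 with this mutant, Csgalnact1 by 0.85 and Tgfbi by 1.09.

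Among endogenous homeobox genes, some members of the HoxA and HoxB clusters were higher with NA10. At the unadjusted thresholds 3 of 9 HoxA genes and 3 of 9 HoxB genes were higher and none lower, against 3.32% and 1.84% over all genes, with median log2 changes of 0.65 and 0.60. Hoxa9, a posterior HOX gene often raised in acute myeloid leukemia, was the brightest of them, at 3800.3, 3652 and 3928 in the GFP control and 6184, 6350.3 and 7127 with NA10 (log2 change 0.79 ± 0.13, limma's adjusted p = 0.0823). Without ND13(N51S) replicate 2 it was called (adjusted p = 0.00363). Its other probe set read 442, 542 and 540.3 in the GFP control and 578, 546 and 715 with NA10 and changed by 0.27 ± 0.22. Hoxa5 went from 117, 212 and 254 to 691, 582 and 612 and Hoxa7 from 78.2, 157 and 39.6 to 205, 267 and 179, changes of 1.76 ± 0.48 and 1.45 ± 0.63. Hoxb4, a gene that expands stem cells when overexpressed, went from 132, 111 and 73.2 to 335, 252 and 201, a change of 1.33 ± 0.24 (unadjusted p = 0.000144). Hoxb3 went from 69.7, 42.9 and 16.9 to 161, 101 and 85.7 (1.59 ± 0.71), and Hoxb5, a marker of long-term stem cells, was above background on the NA10 arrays only, from 15.3, 6.83 and 17.1 to 165, 85.7 and 136, at least 3.82-fold. In 3 of the 9 HoxA and 3 of the 9 HoxB genes the NA10 arrays all lay above the controls, against 6.5% of all genes. The HoxB median was -0.0004 without NA10 replicate 3. None of 13 HoxC and HoxD genes passed either way, and 5 of them, Hoxd13 included, were below background on all 6 arrays.

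Of 10 TALE genes, which encode cofactors of HOX proteins, 1 was higher and 0 lower, against 3.32% and 1.84% over all genes. Pbx3 had nearly equal controls and read 224, 217 and 218 in the GFP control and 621, 408 and 469.6 with NA10, a change of 1.16 ± 0.20 (limma's adjusted p = 0.092, and 0.0267 without ND13(N51S) replicate 2). Meis1 read 921, 887 and 943 in the GFP control and 1208, 999.7 and 995 with NA10, which did not overlap but came to only 0.21 ± 0.18, with an interval of -0.19 to 0.62. Pbx2 changed by -0.19 ± 0.25. The median of the 10 was -0.18, and 2 of them were lower without GFP control replicate 1. The genes whose parts make up the fusion did not pass. Hoxa10 read 111, 119 and 100.3 in the GFP control and 110.0, 115 and 332 with NA10, with only NA10 replicate 3 above the rest (0.55 ± 0.44). Nup98 read 438, 349 and 524 in the GFP control and 579, 413 and 471 with NA10 (0.16 ± 0.23). Whether either probe set covers sequence held by the vector was not tested.

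**Figure D3:**
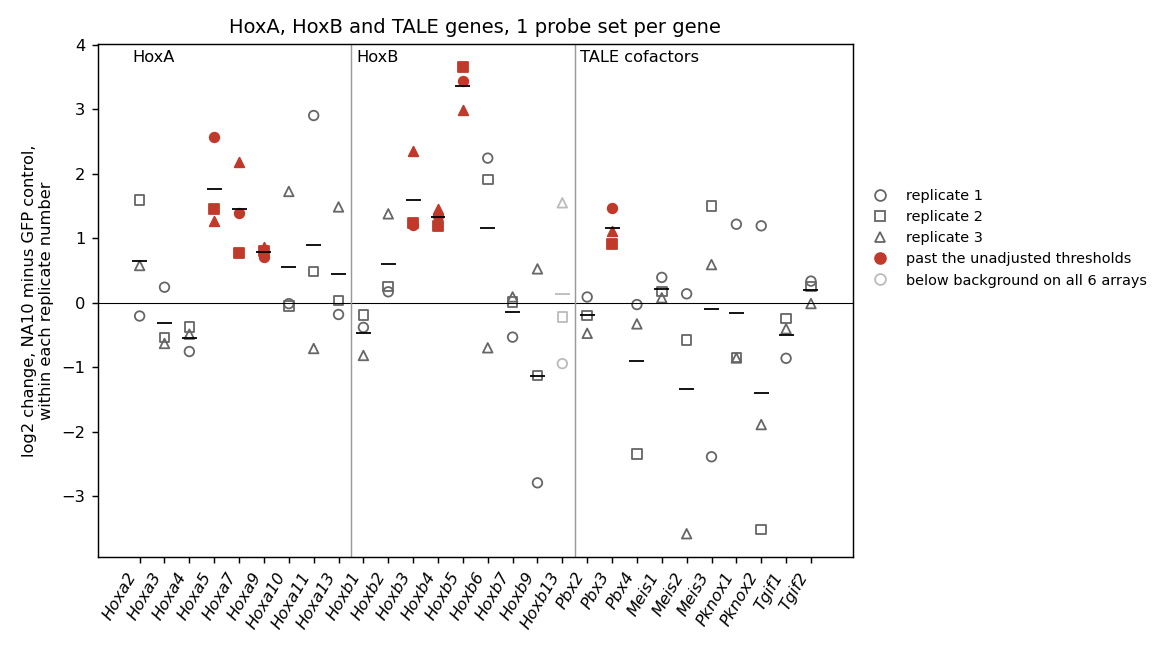
Log2 difference between the NA10 and GFP control arrays of the same replicate number for 9 HoxA, 9 HoxB and 10 TALE genes, with black bars at the fitted change. Filled red symbols are the genes past the unadjusted thresholds (Hoxa5, Hoxa7, Hoxa9, Hoxb3, Hoxb4, Hoxb5 and Pbx3), whose 3 differences are all above 0, and pale symbols are genes below background on all 6 arrays.

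Genes of hematopoietic stem cells were among those higher with NA10. Of 25 surface markers of stem cells 6 were higher and 0 lower at the unadjusted thresholds, against 3.32% and 1.84% over all genes (median 0.31). Procr, the endothelial protein C receptor, read 142, 207 and 159 in the GFP control and 382, 394 and 378 with NA10, with NA10 arrays that were almost equal, a change of 1.20 ± 0.22 (limma's adjusted p = 0.121). Prnp, the prion protein, which is present on long-term stem cells, went from 455, 803 and 1070.1 to 1283, 1436 and 2525 (1.19 ± 0.24). Abcb1a, a drug efflux pump, went from 54.9, 72.1 and 68.8 to 263, 205 and 189 (1.74 ± 0.36), and Flt3, the receptor tyrosine kinase of early progenitors, from 329, 983 and 637 to 1917, 1363 and 1197 (1.31 ± 0.37). Calcrl, a receptor for adrenomedullin, read 442, 672 and 251 in the GFP control and 1156, 1127 and 533 with NA10, so that the groups overlapped while every pair was higher with NA10 (1.07 ± 0.24). Vwf, von Willebrand factor, was near background in the control and went from 3.41, 31.1 and 16.4 to 97.5, 73.5 and 78.1. With ND13(N51S), Procr changed by 0.37, Prnp by 0.95, Abcb1a by 0.13 and Calcrl by -0.07 against the GFP control. Among 26 transcription factors of stem cells 3 were higher and 1 lower (median 0.25). Besides Hlf these were Myct1, from 368, 447 and 477 to 1067, 839 and 672 (0.98 ± 0.21), and Zfpm1, the GATA cofactor Fog1, from 160.3, 109.9 and 103 to 248, 217 and 264 (0.99 ± 0.25), and the lower one was Sox4, from 1664, 1515 and 1932 to 1131, 990.1 and 981 (-0.72 ± 0.20), which did not pass without GFP control replicate 3. Mecom, which encodes Evi1, changed by -0.05 ± 0.34, with an interval of -0.79 to 0.68.

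Of 11 genes of the aryl hydrocarbon receptor pathway 4 were higher and 0 lower (median 0.67): the receptor Ahr, from 175, 236 and 252 to 535, 411 and 491 (1.13 ± 0.30), its repressor Ahrr, from 123, 171 and 260.0 to 282, 348 and 407 (0.96 ± 0.27), and the detoxifying enzymes Nqo1 (0.79 ± 0.28) and Aldh3a1 (2.21 ± 0.77), the last near background in the control. The 4 became 2 without GFP control replicate 1 and 2 without NA10 replicate 3. Of 27 immediate early genes, which respond quickly to cytokines and to handling of cells, 9 were higher and 0 lower, against 3.32% and 1.84% over all genes (median 0.46). The 9 became 6 without GFP control replicate 1 and 6 without replicate 2. In 12 of the 27 the NA10 arrays all lay above the controls, against 6.5% of all genes. The phosphatase Dusp1 went from 264, 212 and 774 to 949, 949.6 and 1349 (1.60 ± 0.36). Egr1, a zinc finger transcription factor, went from 335, 300.0 and 212 to 1102, 592 and 481 (1.29 ± 0.36), and Zfp36, which destabilises cytokine mRNA, from 336, 249 and 506 to 672, 632 and 773 (0.98 ± 0.24). Fos, whose controls ran from 281 to 1949.7, was higher in every pair but overlapped, and Jun went from 170.3, 134 and 199 to 228, 262 and 294 (0.65 ± 0.24). Of 19 genes of the IL-3 receptor and STAT5, 3 were higher and 0 lower (2 without GFP control replicate 1 and 5 without replicate 2): the receptor chain Csf2rb2, from 292, 442 and 353 to 1091, 649 and 946 (1.29 ± 0.33), and the feedback inhibitors Cish, from 767, 777 and 751 to 1196, 1166 and 1379.8 (0.70 ± 0.17), and Socs2, from 933, 1488 and 2049 to 2132, 2154 and 3203 (0.79 ± 0.22).

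Other pathways had fewer members past the thresholds, which 3.32% of all genes passed upward and 1.84% downward. None of 21 Notch pathway genes passed in either direction by its brightest probe set (median 0.12), and 1 was lower without NA10 replicate 2 or 3. For the ligand Jag2 that probe set read 222, 236 and 207 in the GFP control and 260.2, 298 and 219 with NA10 (0.21 ± 0.19), while its dimmer one went from 54.4, 81.3 and 84.3 to 174, 143 and 125 and did pass. Of 18 tyrosine phosphatases 3 were higher and 0 lower, namely Ptprf, Ptprs (0.79 ± 0.18) and Ptpn22 (0.78 ± 0.24). Of 20 integrins 2 were higher and 0 lower, Itgb2 (0.97 ± 0.16) and Itgb7 (0.68 ± 0.25), and 1 of these passed without GFP control replicate 1, NA10 replicate 2 or NA10 replicate 3. Of 23 receptor tyrosine kinases only Flt3 passed, and 1 was lower without GFP control replicate 1 or NA10 replicate 2. Of 18 genes of the TGF-beta pathway 2 were higher and 0 lower, Tgfbi (1.03 ± 0.17 in its brightest probe set) and Ski (1.74 ± 0.75), and 1 of the 2 passed without GFP control replicate 1 or 3 or NA10 replicate 1 or 3.

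Of 15 genes of megakaryocytes and platelets 4 were higher and 0 lower, against 3.32% and 1.84% over all genes. By value 14 were higher, and the median was 0.60. The same shares over all genes apply to the further lists. Pf4, platelet factor 4, went from 3406, 3429 and 2017 to 5084, 5500.2 and 5122 (0.87 ± 0.19), F2rl2, a thrombin receptor, from 152, 238 and 244 to 381, 425 and 633 (1.18 ± 0.23), and Plek, the platelet substrate of protein kinase C, from 1417, 1041 and 822 to 2114, 1585 and 1582 (0.71 ± 0.17), with Vwf the fourth. With ND13(N51S) against the same controls, Pf4 changed by 0.84, F2rl2 by 0.76, Plek by 0.34 and Vwf by 2.35. The summed signal of the 15 was 4802 to 7172 in the controls and 10146 to 10432 with NA10. Of 22 macrophage genes 6 were higher and 0 lower (median 0.29, 3 higher without GFP control replicate 1), among them C1qb, a complement subunit, with 60.1, 122 and 94.2 in the GFP control and 369, 536 and 113 with NA10, the mannose receptor Mrc1 (1.24 ± 0.40), the galectin Lgals3 (0.82 ± 0.25) and the scavenger receptor Cd36 (2.49 ± 0.74). Without NA10 replicate 2, 2 macrophage genes were lower. The summed signals overlapped, at 7709 to 14174 and 10878 to 14981. With ND13(N51S), C1qb changed by 1.48, Mrc1 by 2.37, Lgals3 by 1.42 and Cd36 by 0.94 against the GFP control. Of 20 myeloid transcription factors 3 were higher and 0 lower, Hlx (1.65 ± 0.43), Id2 (0.88 ± 0.28) and Klf4 (0.93 ± 0.35, also an immediate early gene), and 1 without GFP control replicate 1. Of 16 genes of mast cells, basophils and eosinophils 4 were higher, Mitf (1.16 ± 0.27), the protease Cpa3 (0.67 ± 0.23), Fcer1a (0.73 ± 0.32) and Hdc (1.48 ± 0.55), and 1 lower, the tryptase Tpsb2 (-1.94 ± 0.82). The 4 became 2 without GFP control replicate 1, NA10 replicate 2 or NA10 replicate 3, and the 1 became 2 or 0 without any 1 of the 6 arrays. With ND13(N51S), Hlx changed by 0.62, Id2 by 1.35 and Klf4 by 1.94 against the GFP control. Mitf changed by 0.45 with this mutant, Cpa3 by 1.39, Hdc by 0.68 and Tpsb2 by -1.13. For the genes of this paragraph given with the mutant, the difference between it and NA10 was not called.

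Neutrophil granule genes, which include the brightest markers of these cultures, had a median change near 0. At the unadjusted thresholds 3.32% of all genes were higher and 1.84% lower. Of 16, Camp alone was higher (2.00 ± 0.80), the median was 0.03, and Mpo, myeloperoxidase, read 7388, 8188 and 7048 in the GFP control and 3866, 8481 and 6609 with NA10 (-0.33 ± 0.29). The count was 6 when GFP control replicate 2 was left out. It was 0 without GFP control replicate 1 or 3 or NA10 replicate 1 or 2, and 2 without ND13(N51S) replicate 2. Without GFP control replicate 3 or NA10 replicate 2, 2 were lower. The 2 erythroid genes were Car2, carbonic anhydrase 2, from 4609, 1355 and 3488 to 7665, 4303 and 9229 (1.27 ± 0.29), and Rhag, a Rh-associated glycoprotein that was below background in the control and above it on the 3 NA10 arrays (at least 1.4-fold). Of these 2 only 1 passed without GFP control replicate 2 or 3 or any 1 NA10 array, and 1 erythroid gene was lower without any 1 GFP control array or NA10 replicate 3. Of 20 genes of lymphoid priming 1 was higher and 1 lower. Ighm, the heavy chain of IgM, went from 273, 347 and 329.9 to 787, 589 and 641 (1.08 ± 0.31), and Vpreb1, a surrogate light chain of early B cells, was below background with NA10 only, from 70.3, 76.4 and 67.3 to 16.0, 9.69 and 10.5, at least 1.85-fold lower. Both counts were 2 without GFP control replicate 3, and the lower was 2 without NA10 replicate 2. Of 13 MHC class II genes H2-DMa alone passed (0.94 ± 0.36), 11 were higher by value, and the median was 0.37. None passed without GFP control replicate 1 or NA10 replicate 2.

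Markers of other cell types that the sorted fraction could hold were also examined, beside 3.32% of all genes higher and 1.84% lower. Of 15 T and NK genes 13 exceeded background on at least 1 array, with summed signals of 2001 to 2954 and 1711 to 2793, and Cd3d and Cd4 on none. Gzmb was higher (0.63 ± 0.27), not passing without GFP control replicate 1 or 3 or NA10 replicate 2 or 3, and Nkg7 (-0.77 ± 0.19) and Il2rb (at least 1.53-fold) were lower. All 15 endothelial genes exceeded background somewhere, with sums of 1795 to 2162 in the controls and 2384 to 3031 with NA10, which did not overlap. Emcn (1.47 ± 0.57) and Egfl7 (0.72 ± 0.28) were higher, neither of them past the thresholds without GFP control replicate 1 and 1 of them without GFP control replicate 3 or NA10 replicate 1 or 2, while Pecam1 was lower (-1.79 ± 0.72). Pecam1 did not pass without GFP control replicate 1 or 2 or NA10 replicate 1 or 3. For 24 genes of fibroblasts and matrix, which the producer cells of the coculture could carry, the sums were 2223 to 4207 and 2504 to 3330. Of these 2 were higher, Postn (at least 2.56-fold) and Timp3 (1.59 ± 0.63), with 0 without NA10 replicate 1 and 1 without GFP control replicate 1 or 2 or NA10 replicate 3, and 1 was lower without GFP control replicate 1, NA10 replicate 3 or ND13(N51S) replicate 2. Their part in the other results was not tested.

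Of 25 imprinted genes 5 were higher and 0 lower (median 0.07): Dlk1, a ligand-like transmembrane protein, with 124, 123 and 588 in the GFP control and 471, 236 and 826 with NA10, Meg3, a noncoding RNA of the same locus (0.66 ± 0.21), Plagl1 (2.32 ± 0.82), Phlda2 (2.12 ± 0.84) and Sgce (0.84 ± 0.31). Over all genes 3.32% were higher and 1.84% lower. Dlk1 and Plagl1 overlapped between the groups. The 5 became 1 without GFP control replicate 1 and 1 without NA10 replicate 3. Of 15 germ cell genes Ddx4 alone was higher, and Piwil1, a Piwi protein, went from 47.9, 45.2 and 42.1 to 5.92, 8.53 and 24.1, below background with NA10 and at least 1.17-fold lower. It did not pass without GFP control replicate 1 or 2 or NA10 replicate 1, and 2 of the genes were lower without GFP control replicate 3. Of 7 genes of the CAP family of cysteine-rich secretory proteins 3 were higher, against 3.32% of all genes. The other 4 were lower by value, the median was -0.20, and only 5 of the 7 exceeded background on any array. Crisp3 went from 2.10, 16.5 and 1.86 to 67.1, 66.2 and 181, at least 2.85-fold, Crispld1 changed by 1.32 ± 0.56, and Pi15 stayed below background on all arrays. The 3 became 1 without GFP control replicate 1 or NA10 replicate 3.

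Interferon-stimulated genes were mostly lower by value with NA10. Of 28 genes 7 were lower and 1 higher, against 1.84% and 3.32% over all genes. By value 24 were lower, and the median was -0.42 (-0.45 after median centring and -0.44 after quantile normalisation). GFP control replicate 1 held the highest value of each lower gene named here. Usp18, a protease that removes ISG15, read 1523, 171 and 566 in the GFP control and 112, 87.5 and 194 with NA10 (-2.09 ± 0.48). Rsad2, the antiviral protein viperin, read 1086, 179 and 395 in the GFP control and 197, 175 and 319 with NA10 (-0.93 ± 0.42), and Irf7 945, 140.1 and 301 in the GFP control and 234, 195 and 144 with NA10 (-0.87 ± 0.38). Mx1 was below background with NA10 only, from 124, 34.7 and 65.9 to 23.1, 8.26 and 16.2, at least 1.7-fold lower, and Gbp3, a GTPase induced by interferon, went from 623, 292 and 549 to 204, 244 and 229 (-1.04 ± 0.38). Only Mx1 and Gbp3 of those named had groups that did not overlap, and 4 of the 28 genes did in all, against 5.38% of all genes for NA10 below control. Gbp2 was the higher one (0.92 ± 0.35), and it did not pass without GFP control replicate 2 or 3 or NA10 replicate 3. The count of lower genes moved with single arrays. It was 3, 13 and 2 without GFP control replicates 1, 2 and 3, and 4, 11 and 4 without NA10 replicates 1, 2 and 3. Without GFP control replicate 1 the median was -0.25, and without the replicate block 3 genes were lower. The record of GFP control replicate 1 speaks of other cells than its label, and the part of that array in this list beyond these values was not tested.

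For the lists that follow, 3.32% of all genes passed the unadjusted thresholds upward and 1.84% downward. None of 23 S phase genes passed in either direction, though 19 were lower by value (median -0.18, range over all alternatives -0.21 to -0.11), and Pcna, the replication clamp, changed by -0.18 ± 0.11. None of 24 genes of G2 and mitosis passed (median 0.07), with Mki67 at 0.17 ± 0.12. Of 17 CDK inhibitors and cyclins Cables1 alone was higher, from 195, 441 and 475 to 557, 555 and 801 (0.87 ± 0.25), but not without GFP control replicate 1, and 2 were higher without NA10 replicate 1. None of 14 Bcl2 family genes passed, and of 16 p53 targets only Zmat3 (0.76 ± 0.28), which did not pass without GFP control replicate 1 or 2 or NA10 replicate 1. Of 17 genes of glycolysis and hypoxia 2 were higher, the hexokinase Hk2, from 2632, 2315 and 2557 to 4231, 3800.3 and 3511 (0.62 ± 0.15), and Vegfa (0.81 ± 0.29). Neither passed without GFP control replicate 2 or NA10 replicate 1, and 1 without GFP control replicate 3. No gene passed among 17 of cholesterol synthesis, 19 of stress responses, 19 chromatin regulators and 18 nucleoporins and transport factors, whose medians were 0.01, -0.01, -0.04 and -0.15. With single arrays left out, at most 1 gene of the S phase, Bcl2 and cholesterol lists was lower, and 2 stress genes were lower without NA10 replicate 3. The 45 cytosolic ribosomal protein genes, taken as a control set, gave 0 in either direction and a median of 0.05.

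**Figure D4:**
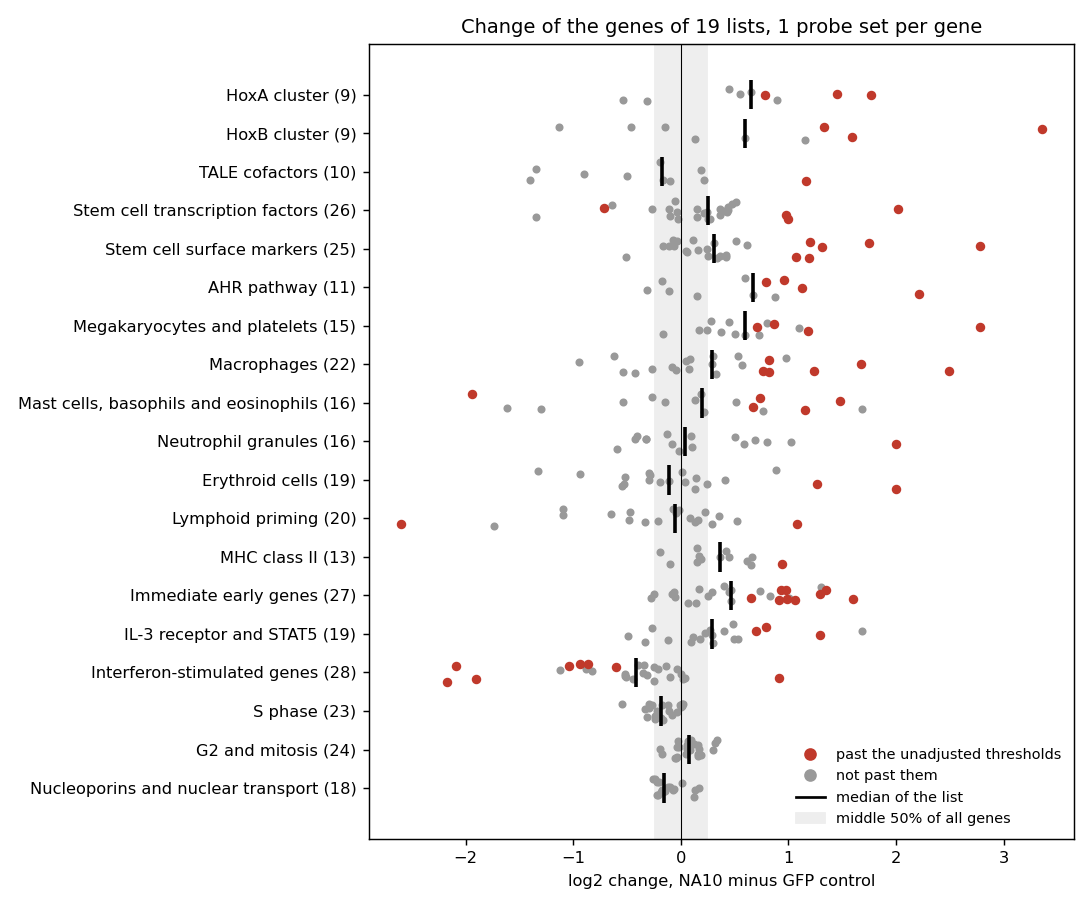
Log2 change with NA10 of each gene of 19 lists (x axis; number of measured genes in brackets), with 1 probe set per gene. Red points pass the unadjusted thresholds, black bars are list medians and the grey band is the middle 50% of all genes, from -0.24 to 0.24. The AHR, HoxA, HoxB, megakaryocyte and immediate early medians lie farthest right of the band, and the interferon median alone lies left of it.

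The lower genes of smallest p, taken among those without overlap between the groups, were mostly dim. Besides Mycn, Vpreb1 and Tm6sf1 they were Mark2, Hamp2, Stk11, Reg4, Galc, Pax6 and Adgrg3. Mark2, a kinase of cell polarity, read 63.9, 77.4 and 83.7 in the GFP control and 13.5, 19.4 and 12.8 with NA10, below background with NA10 and at least 1.93-fold lower (limma's adjusted p = 0.0823). Its other 2 probe sets changed by -0.30 ± 0.23 and -0.01 ± 0.64. Stk11, the kinase Lkb1, read 142, 101 and 96.9 in the GFP control and 20.4, 21.3 and 14.0 with NA10 in this probe set, at least 2.9-fold lower, while its brighter one changed by -0.21 ± 0.35. Reg4, Hamp2 and Pax6 had controls of 42.1 to 72.8 and NA10 signals below background, so their changes were at least 1.47-fold, 1.18-fold and 1.43-fold. Galc, a lysosomal galactosidase, was near background in the control and below it with NA10 in this probe set, and its brightest one changed by -0.28 ± 0.37. Adgrg3, an adhesion G protein-coupled receptor, was the brightest of them apart from Mycn and Tm6sf1, at 888, 1320.0 and 1453 in the GFP control and 555, 698 and 851 with NA10 (-0.79 ± 0.20). None of these genes apart from Mycn was called.

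Set beside the other fusions, which share the GFP control arrays, NA10 was compared with each directly. ND13 and ND13(N51S) carry another HOX partner than NA10, so the comparison with the mutant differs in both partner and DNA binding, which cannot be told apart. In the test against ND13, 2 probe sets were called higher with NA10 than with ND13 (0.00884%) and 7 lower (0.0309%). The beta-globin probe set was higher with NA10, by 1.43 ± 0.14 (limma's adjusted p = 0.00217), with ND13 at 1808, 3468 and 3606, and so was Vldlr, a lipoprotein receptor, by 1.46 ± 0.20, which read 749.5, 1086 and 369 in the GFP control and 1302, 1136 and 534 with NA10 and 432, 423 and 208 with ND13. The 7 lower probe sets were 3 of Meg3, 1 each of Dlk1 and Rian, all of one imprinted locus, and those of Ccr1 and Mark2. Dlk1 reached 13178, 8489.9 and 16893 with ND13, so that NA10 differed by -4.78 ± 0.32, and the brightest Meg3 probe set 4861, 3716 and 2812 (-3.41 ± 0.21). The chemokine receptor Ccr1 read 553, 362 and 507 with NA10, against 544, 364 and 357 in the controls, and 2102, 1418 and 1829 with ND13 (-1.92 ± 0.19). The calls of the beta-globin probe set, Ccr1, Dlk1 and 2 Meg3 probe sets held with each of the 12 arrays left out in turn. Those of Mark2, the other Meg3 probe set, Rian and Vldlr were lost in 7, 6, 9 and 9 of these 12 fits, with adjusted p of up to 0.249, 0.313, 0.323 and 0.48. These fits were chosen after the data were seen. Without the replicate block 0 probe sets were higher than with ND13 and 4 lower, and the calls of the beta-globin probe set and Ccr1 were lost (adjusted p = 0.846 and 0.0763). The number called higher was 6 without ND13(N51S) replicate 2 and 1 without GFP control replicate 2 or 3 or any 1 NA10 or ND13 array, and the number called lower 13 without ND13(N51S) replicate 2 and 4 without GFP control replicate 3, NA10 replicate 1 or 3 or ND13 replicate 1.

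Against ND13(N51S), 9 probe sets were called higher with NA10 (0.0398%) and 1 lower (0.00442%). Probe set 1416325_at was higher by 4.60 ± 0.45 (limma's adjusted p = 0.00725), with the mutant at 66.6, 56.2 and 62.3 and ND13 at 1249, 642 and 628. Ddx4 was at least 12.2-fold higher (limma's adjusted p = 0.0245), with ND13 between them at 114, 121 and 90.8 and the mutant at 4.30, 42.1 and 21.1, below background on all its arrays. The beta-globin probe set was higher by 1.33 ± 0.14, and Mark2, below background with NA10, was at least 3.93-fold lower, with the mutant at 141, 141 and 174. The other 6 probe sets were those of Malat1, Sirt2, Ddx6, Atrx and Rbm5, of which only Sirt2 passed the unadjusted thresholds against the GFP control. In all 6 the mutant mean lay below the GFP control mean. Mean signals in the GFP control, with NA10 and with the mutant were 2105, 3294 and 280 for Malat1. They were 133, 292 and 59.6 for Sirt2, 1087, 1748 and 387 for Ddx6, and 779, 686 and 173 for Atrx. ND13(N51S) replicate 2, whose Gapdh ratio stood apart, entered the mutant mean and was the lowest mutant array in each. All 10 remained called without ND13(N51S) replicate 2, where 33 were higher and 10 lower, and 0 were called without NA10 replicate 3. Without ND13(N51S) replicate 3 the counts were 106 and 15, and without replicate 1 of that group 4 and 1. Without NA10 replicate 1 they were 1 and 0, and without NA10 replicate 2 they were 2 and 2. Without ND13 replicate 1, 2 or 3 they were 5 and 1, 3 and 2, and 2 and 1, and without GFP control replicate 2 the number lower was 2. Of the 12 arrays, only NA10 replicate 3 ended the call of 1416325_at when left out (adjusted p = 0.108), and NA10 replicates 1 and 3 that of the beta-globin probe set. The call of Mark2 was lost in 3 of the 12 fits and that of Ddx4 in 6, with adjusted p of up to 0.108 and 0.218. Those of Malat1 and Sirt2 were lost in 8 and 9, those of Ddx6 and Atrx in 7 each and those of the 2 Rbm5 probe sets in 7 and 5, with adjusted p of up to 0.243. Without the replicate block 1416325_at and Mark2 alone remained called, and the adjusted p was 0.35 for the beta-globin probe set and 0.0713 for Ddx4.

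For the called genes the 3 fusions gave the following fitted log2 changes against the same controls, which are no bounds where the controls were below background. Probe set 1416325_at changed by 6.44 with NA10, 5.53 with ND13 and 1.83 with ND13(N51S), Ddx4 by 5.66 with NA10, 3.17 with ND13 and 0.38 with ND13(N51S), and Pde9a by 4.47 with NA10, 2.33 with ND13 and 0.70 with ND13(N51S). Clu changed by 4.23 with NA10, 2.07 with ND13 and 1.44 with ND13(N51S), Hlf by 2.51 with NA10, 1.55 with ND13 and 0.92 with ND13(N51S), and Hacd4 by 2.18 with NA10, 1.36 with ND13 and 1.0 with ND13(N51S). For Olfm1 the values were 2.94 with NA10, 3.0 with ND13 and 2.65 with ND13(N51S), and for Mycn -1.07 with NA10, -0.95 with ND13 and -1.47 with ND13(N51S). Of the 8 probe sets called higher, 7 were above ND13 by value and 8 above the mutant, which the choice of genes high with NA10 favours, and the difference itself was called for 1 and 3. Among homeobox genes, Hoxa9 changed by 0.79 with NA10, 0.44 with ND13 and 0.09 with ND13(N51S), Pbx3 by 1.16 with NA10, 1.05 with ND13 and -0.12 with ND13(N51S), and Hoxb4 by 1.33 with NA10, 0.60 with ND13 and 0.31 with ND13(N51S). The difference between NA10 and ND13 in Hoxb4 was 0.73 ± 0.24 (limma's adjusted p = 0.787) and that between NA10 and the mutant in Pbx3 1.28 ± 0.20 (0.0666). Hoxb5 changed by 3.36 with NA10, -0.64 with ND13 and 0.71 with ND13(N51S), and the difference from ND13, 4.00 ± 0.91, did not pass (adjusted p = 0.422). Procr and Flt3 changed by 1.02 and 1.34 with ND13. The immediate early genes Jun and Zfp36 changed by 1.84 and 1.74 with ND13 and by 1.78 and 1.46 with the mutant, and these differences from NA10 were not called.

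**Figure D5:**
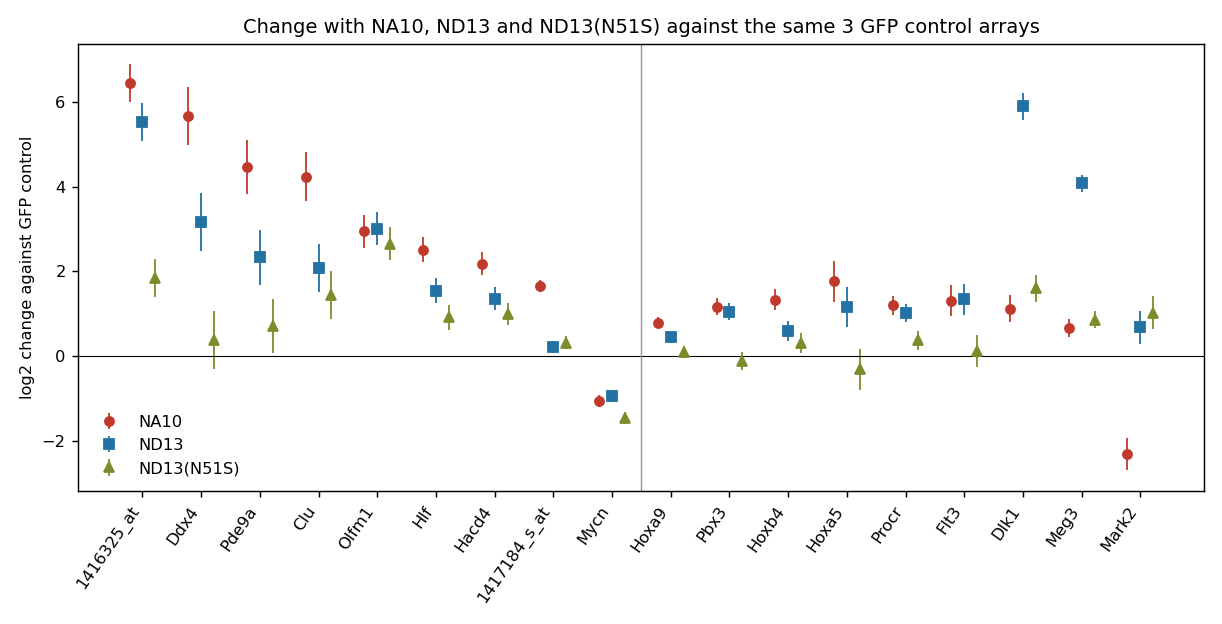
Log2 change against the GFP control with NA10 (circles), ND13 (squares) and ND13(N51S) (triangles) for the 9 called probe sets and 9 other named genes, with bars of 1 SE from the fit of all 12 arrays. Each gene's 3 values share the same control arrays. The called probe sets were chosen for their change with NA10, which favours NA10 in the order of the symbols, and Dlk1 and Meg3 for their difference from ND13.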

How the data were processed

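RNA of sorted bone marrow cells was amplified and hybridised to 12 Affymetrix MOE430A arrays. The authors deposited 1 intensity per probe set and array, a MAS5 signal on a linear scale with each array scaled to a common trimmed mean; the version of MAS5 is not given in the sources used here. The study's own analysis also used GC-RMA on scanner files, which are not used here. Of 22690 probe sets, 64 controls were left out, and 22626 were tested without a filter.

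Log2 signals were fitted with limma 3.58.1 in R 4.3.3 (lmFit, then eBayes with trend and robust settings) over all 12 arrays, with group and replicate number as terms, which left 6 residual degrees of freedom. P-values were adjusted by the Benjamini-Hochberg method over all probe sets. A call needed an adjusted p under 0.05 and a 1.5-fold change, and the unadjusted thresholds were p under 0.05 and 1.5-fold, the study's own. With 3 arrays against 3 an exact permutation test cannot go below 0.1. Figures were drawn in Python 3.11.15 with matplotlib 3.10.9. The procedure was tested on simulated data that held no replicate effect and no outlying array, so that test does not cover the use of the block.

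The replicate number was kept as a block because arrays of the same number deviated together among probe sets above the median signal: their correlations of deviations from group means were 0.106 to 0.596 over 18 pairs, and 0.33 to 0.572 for the 3 pairs of NA10 and the GFP control. Over all probe sets these were 0.031 to 0.156. The labels say nothing of what a number shares.

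A probe set below the background on all arrays of a group has only a bound there, and its change is given as at least so many fold, from the mean log2 signal of the brighter group and the background of each array of the dimmer one. The annotation gave 1 gene to 20380 probe sets, several to 691 and none to 1555, and 20351 of the first were matched to current symbols by gene number. A gene was represented by its brightest probe set over the 12 arrays. The genes named are the called ones, members of 41 gene lists and the genes of smallest p in each direction. The last had to pass the unadjusted thresholds with all 3 NA10 arrays beyond all 3 control arrays. Their lack of overlap was thus a rule of choice. The mean of their brighter group also had to exceed background. Members and lists were chosen with earlier results of these data known. Promoters were searched on both strands. The alternatives were no block, the 6 arrays alone, quantile normalisation, median centring, a pseudocount of 32 and a filter on dim probe sets. Further ones were plain eBayes, 1 probe set per gene and the methods' t-test. Each of the 6 arrays and ND13(N51S) replicate 2 were also left out in turn. The ND13 arrays and the other ND13(N51S) arrays were not left out for NA10 against the GFP control. Leaving out each of the 12 arrays for the comparisons with ND13 and ND13(N51S) was chosen after seeing the data.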

Additional observations from a re-analysis of the deposited data

Results flagged for a closer look

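Several effects differed between NA10 and another fusion by limma's direct test over the same 12 arrays. Probe set 1417184_s_at, of the beta-globin genes, was higher with NA10 than with ND13 by 1.43 on the log2 scale and higher than with ND13(N51S) by 1.33. The Mark2 probe set had fitted differences of -2.99 from ND13 and -3.34 from ND13(N51S), with NA10 below background on all 3 arrays, so these are no bounds. Dlk1 differed by -4.78 and the brightest Meg3 probe set by -3.41 between NA10 and ND13, both of them genes of one imprinted locus. Probe set 1416325_at, with no gene in the annotation, differed by 4.60 between NA10 and ND13(N51S). For Ddx4 that fitted difference was 5.28, with the mutant below background on all 3 arrays.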

How the results depend on the processing

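The numbers called higher and lower with NA10 were 8 and 1, and those at the unadjusted thresholds 690 and 426. The pairing by replicate number mattered for the calls: with no replicate block 3 were higher and 0 lower. On the 6 arrays alone the calls were 19 and 3, with plain eBayes 2 and 2, after median centring 0 were lower, with the filter on dim probe sets 5 were higher, and with 1 probe set per gene 4 were higher. Without ND13(N51S) replicate 2 they were 47 and 3. With the filter the unadjusted counts were 356 and 83, with 1 probe set per gene 415 and 232, which follows from fewer features tested, and with the methods' t-test 330 and 193, with 0 and 0 called. Leaving out 1 of the 6 arrays gave 2 to 8 called higher, 0 to 0 called lower, and 521 to 813 and 376 to 611 at the unadjusted thresholds. The HoxB median, 0.60, ran from -0.0004 without NA10 replicate 3 to 0.94 without NA10 replicate 1 as single arrays were left out. For the other differences the cause was not tested. Of 2134 values of single genes under the alternatives, 2041 kept their side of the threshold, 34 passed it and 59 lost it, and no value past the threshold turned direction, while some values near 0 did. The small number of arrays and signals near background limit the precision, above all for lower genes.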
